A study of Homo sapiens with 4 samples.

Results

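Desmosomes and tight junctions are the cell contacts by which epithelial cells hold together and seal the sheet they form, and their genes were followed here in HCC1954 breast cancer cells with and without knockdown of ZDHHC15, a palmitoyltransferase. The set was taken by gene name from the protein-coding entries of the count table and held 48 genes of 58735, or of 19951 that are protein-coding. It comprised 24 claudins, 3 zonula occludens (ZO) genes and 6 other tight junction genes, which make 33 tight junction genes, and 4 desmogleins, 3 desmocollins, 4 plakophilins and 4 other plaque genes, which make 15 desmosome genes.

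HCC1954 is an established human HER2-positive breast cancer line. The samples were 2 libraries of cells that received a scrambled shRNA (shCON) and 2 of cells that received an shRNA against ZDHHC15 (shZDHHC15), all from GIPZ vectors. The labels speak of a stable knockdown and also of transient plasmid transfection with harvest after 36 h, the methods add that monoclonal cultures were screened for the hairpins, and whether a library came from 1 clone or 1 hairpin is not stated. The samples carry the numbers 1 and 2 within a group with no statement that they were separate cultures. The p-values below therefore measure the spread between these libraries, which may be technical. For each gene that spread was in large part shared over all tested genes.

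A desmosome joins neighbouring cells through cadherins of the desmoglein and desmocollin families. Inside the cell, plakoglobin (JUP) and plakophilins (PKP) tie these cadherins to desmoplakin (DSP), which holds the keratin filaments. A tight junction is built of strands of claudins together with occludin and its relatives, and ZO proteins beneath the membrane join the strands to the actin cytoskeleton. Claudins differ in whether they close the space between cells or let ions through it, so the mixture of claudins sets how leaky an epithelium is.

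Total counts per library ran from 17560982 to 19118704, of which the 48 junction genes took 78886 to 87719. ZDHHC15 had 17617 and 15716 counts in the shCON libraries and 0 in both shZDHHC15 libraries. An shRNA usually leaves some transcript of its target, and why none was counted was not tested. A count of 0 allows up to 3 counts, equal to 0.157 and 0.165 CPM (counts per 1000000) in the shZDHHC15 libraries, a limit that covers counting error only. EPCAM, an epithelial adhesion protein, stood at 251 to 273 normalised CPM in shCON and 203 to 208 in shZDHHC15 (adjusted p = 6.08e-03 by edgeR). CDH1, the E-cadherin of epithelial cells, stood at 353 to 378 and 347 to 360 (adjusted p = 0.706 by edgeR). Of the 13 epithelial markers described further below, 9 were lower in shZDHHC15 and 1 higher, and KRT8 fell most. The transcriptome as a whole differed widely between the groups. Of 15817 genes with enough counts to test, 42.0% passed an adjusted p of 0.05 (quasi-likelihood F-test of edgeR, p-values adjusted by the Benjamini-Hochberg method), 21.7% higher and 20.3% lower in shZDHHC15, and the normalised CPM of the groups did not overlap for 72.5%. Every adjusted p below comes from this fit over all tested genes, and a log2 fold change is shZDHHC15 over shCON with its standard error (SE). The SE was derived from the fold change and its F statistic.

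Junction genes moved in both directions, and not as one block. Of the 29 that could be tested, 8 rose and 12 fell in shZDHHC15, a share of 69.0%. This is above the 42.0% of all tested genes, but the junction genes were also more abundant than most, and among the 4622 tested genes at or above their median abundance 58.2% passed, against 11 of the 15 junction genes in that range. The median log2 fold change of the 29 genes was −0.11, with a middle range of −0.44 to 0.55, beside a median of 0.015 over all tested genes. In 24 of the 29 (82.8%) the groups did not overlap. Only 1 junction gene rose by more than 1 on the log2 scale (TJP3) and 2 fell by more than 1 (CLDN3 and CLDN6), where 7.51% and 3.79% of all tested genes did. Desmosome genes had 4 higher and 2 lower of 9 tested (median 0.11), and tight junction genes had 4 higher and 10 lower of 20 (median −0.28). CLDN6 passed the filter on low counts only through the shCON group, where it was higher. Its place in the 12, the 10 and the 2 that fell was therefore partly set by that filter. Among all tested genes 21.7% were higher and 20.3% lower. These 2 shares, also set beside groups of genes below, were not matched for abundance. The other 19 genes had at most 7 counts in any library and were not tested.

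**Figure D1:**
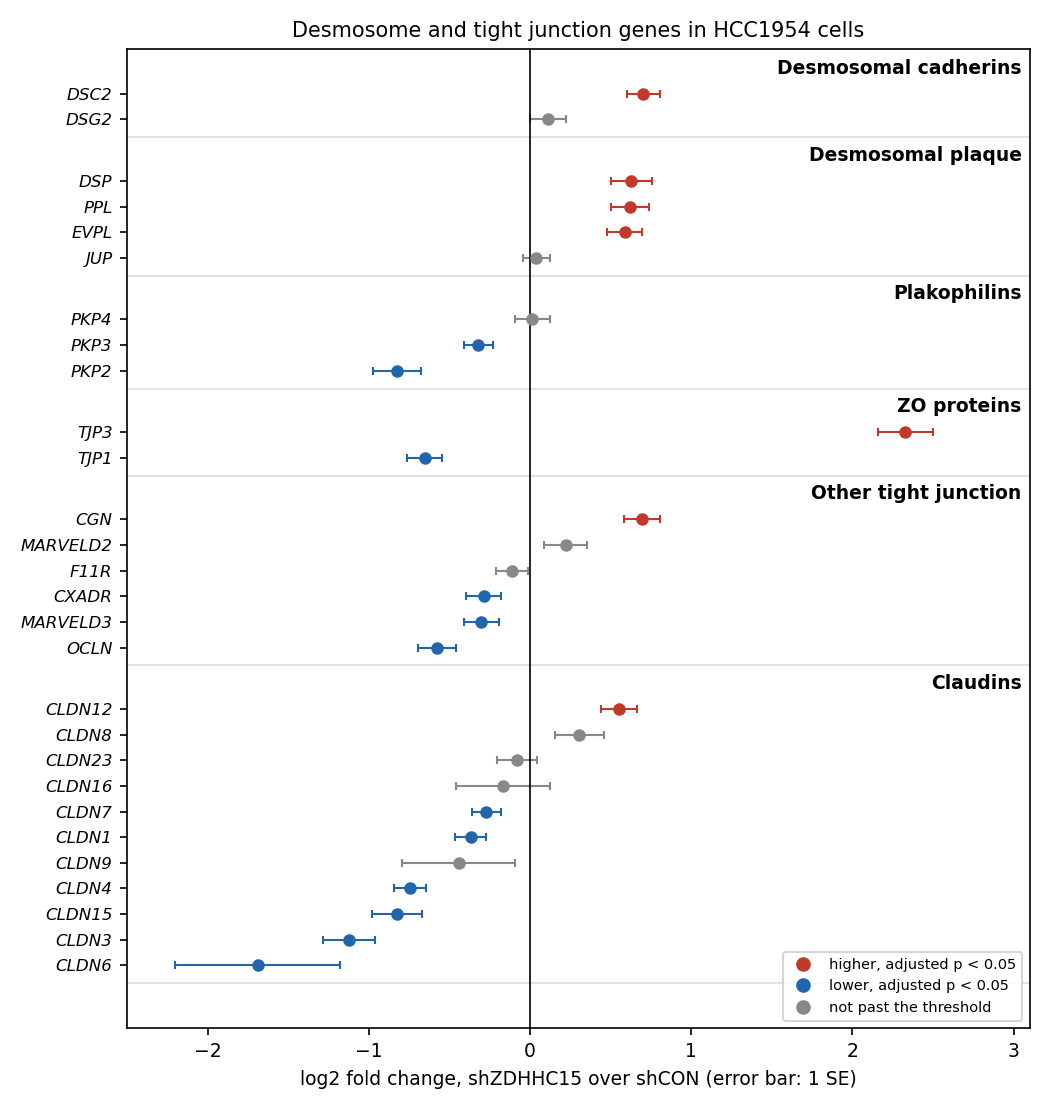
Log2 fold change of 28 of the 29 tested desmosome and tight junction genes (x axis, shZDHHC15 over shCON, n = 2 libraries per group), grouped by family on the y axis, with bars of 1 SE. TJP3 lies far to the right of all others at 2.33, the other genes drawn that rose lie between 0.55 and 0.70, and most claudins lie left of 0.

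The ZO scaffolds TJP3 and TJP1 parted from each other. TJP3 (ZO-3) had 12.2 and 11.2 CPM in shCON and 70.0 and 47.9 in shZDHHC15, from counts of 223, 189, 1303 and 941. Both knockdown libraries lay far above both controls. It rose 5.02-fold (log2 fold change 2.33, SE 0.17, adjusted p = 7.54e-08), the largest change among the 29 junction genes, and the value stayed between 2.03 and 2.57 in every alternative fit that was run.

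TJP1 (ZO-1), the scaffold most used as a marker of tight junctions, went the other way. It had 180 and 146 CPM in shCON and 104 and 103 in shZDHHC15 (log2 fold change −0.65, SE 0.11, adjusted p = 2.17e-04). The knockdown libraries lay close together and below both controls.

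To compare these scaffolds with each other, counts were divided by gene length and scaled to the same sum in each library, here called the level per length. On this scale TJP1 stood at 55.4 and 42.5 in the shCON libraries and at 33.6 and 33.3 in the shZDHHC15 libraries. TJP3 stood at 10.1 and 8.73 in shCON and at 60.5 and 41.4 in shZDHHC15. The level per length was thus higher for TJP1 in both controls and higher for TJP3 in both knockdown libraries. By CPM, without division by length, TJP1 was above TJP3 in all 4 libraries, since the TJP1 gene model is longer.

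TJP3 lies on chromosome 19 at 3708109 to 3750813 on the plus strand (GRCh38) and CLDN3 on chromosome 7 at 73768997 to 73770270 on the minus strand. Their promoter windows are shown because these genes changed most apart from CLDN6, whose counts were low. RefSeq (GRCh38.p14) gives 2 start sites for TJP3 and 1 for CLDN3, each with 250 bases before and 50 after the start. Both TJP3 windows lie inside the TJP3 gene as the count table places it, and the CLDN3 window spans the start of its gene. Capitals mark matches, on either strand, to 5 short motifs: GGGCGG (GC-box), CACCTG (an E-box bound by SNAI and ZEB repressors), AACCNGTT (grainyhead-like factors), GGAATG (TEAD factors) and TGANTCA (AP-1).
TJP3 chr19:3708134-3708433, plus strand: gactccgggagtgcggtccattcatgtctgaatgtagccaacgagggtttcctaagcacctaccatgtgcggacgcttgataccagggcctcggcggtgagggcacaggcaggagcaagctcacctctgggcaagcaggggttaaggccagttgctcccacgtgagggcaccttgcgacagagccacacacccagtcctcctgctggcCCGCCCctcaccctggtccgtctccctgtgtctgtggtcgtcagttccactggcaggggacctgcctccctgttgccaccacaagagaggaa
TJP3 chr19:3721487-3721786, plus strand: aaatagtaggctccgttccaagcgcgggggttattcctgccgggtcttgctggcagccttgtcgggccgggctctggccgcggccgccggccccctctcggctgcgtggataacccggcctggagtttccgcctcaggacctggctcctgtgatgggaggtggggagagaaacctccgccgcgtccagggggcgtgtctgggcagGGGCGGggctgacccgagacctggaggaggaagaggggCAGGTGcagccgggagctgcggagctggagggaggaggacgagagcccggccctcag
CLDN3 chr7:73770221-73770520, minus strand: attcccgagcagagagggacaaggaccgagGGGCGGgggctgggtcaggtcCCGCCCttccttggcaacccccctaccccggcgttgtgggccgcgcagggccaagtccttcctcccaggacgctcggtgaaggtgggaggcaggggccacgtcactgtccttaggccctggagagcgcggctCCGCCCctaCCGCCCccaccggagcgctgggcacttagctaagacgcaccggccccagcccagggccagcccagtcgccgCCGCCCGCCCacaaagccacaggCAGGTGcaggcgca
The first TJP3 window holds 1 match, a GC-box that begins 42 bases before the start. The second holds a GC-box that begins 45 bases before the start and an E-box that begins 7 bases before it. The CLDN3 window is 72% G and C and holds 6 GC-box matches, 2 of which overlap, and 1 E-box that begins at base 37 counted from the start. These matches are letters only and are not evidence of binding.

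The same search covered the 18 tested junction genes with a RefSeq window, 28 windows in all, beside 35116 windows of all genes. The E-box, in 20.6% of all windows, stood in 3 of the 7 windows of genes that rose (TJP3, DSC2 and DSP), in 6 of the 13 of genes that fell (CLDN3, CLDN6, CLDN7, OCLN and TJP1) and in 3 of the 8 of genes that did not pass (CLDN16, DSG2 and JUP). The grainyhead motif, found in 1.73% of all windows, stood in CGN alone of the 18 genes. The TEAD motif, in 14.0% of all windows, stood in CLDN15 alone of the 18. The AP-1 motif, in 7.71% of all windows, stood in CLDN4, CLDN15 and CLDN16. The GC-box, in 44.95% of all windows, stood in 6 of the 7, 10 of the 13 and 6 of the 8. Genes that rose and genes that fell both held the E-box and the GC-box.

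Claudins form the strand of the tight junction, and 6 of the 11 tested fell while 1 rose (median log2 fold change −0.37), where 20.3% of all tested genes fell and 21.7% rose. The 6 include CLDN6, which passed the filter on low counts only through the shCON group. CLDN4, a claudin that tightens the barrier, was the most abundant junction gene per length in shCON. It had 1339 and 1534 CPM in shCON and 794 and 924 in shZDHHC15, with no overlap (log2 fold change −0.74, SE 0.10, adjusted p = 3.43e-05). CLDN3, its neighbour and like CLDN4 a receptor for the enterotoxin of Clostridium perfringens, had 18.8 and 23.9 CPM in shCON and 10.4 and 9.17 in shZDHHC15. It fell to less than the level of either control (log2 fold change −1.12, SE 0.16, adjusted p = 6.62e-05).

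CLDN15, a claudin that forms cation pores in the intestine, had 19.6 and 16.6 CPM in shCON and 9.94 and 10.5 in shZDHHC15 (log2 fold change −0.83, SE 0.15, adjusted p = 5.73e-04). CLDN1, the claudin needed for the water barrier of skin, had 613 and 570 CPM in shCON and 421 and 496 in shZDHHC15 (log2 fold change −0.37, SE 0.10, adjusted p = 6.95e-03). Without shZDHHC15 replicate 1, the lower of the knockdown libraries for CLDN1, the value was −0.26 and adjusted p was 0.174. CLDN7, which is common along the sides of epithelial cells, had 213 and 237 CPM against 187 and 186 (log2 fold change −0.27, SE 0.093, adjusted p = 0.0291). The CLDN7 call was lost when libraries were scaled by total counts alone (adjusted p = 0.0894), when all genes were kept regardless of counts (adjusted p = 0.0716) and without any 1 of 3 libraries, all but shCON replicate 1 (adjusted p = 0.117 to 0.146). Its exons share 38 bases with ELP5 on the other strand, and whether counting used strand is not stated.

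CLDN6, a claudin of embryonic epithelia, had only 27 and 15 counts in shCON and 7 and 7 in shZDHHC15. It passed the filter on low counts only through the control group (log2 fold change −1.69, SE 0.51, adjusted p = 0.0154), so its difference was partly set by that filter. With no filter its adjusted p was 0.0532, or 0.135 with DESeq2, which was also run without the filter, and leaving out shCON replicate 1 or shZDHHC15 replicate 2 gave 0.172 or 0.0548. Its exons also share 40 bases with TNFRSF12A on the other strand, which had 7984, 9079, 4484 and 5827 counts. CLDN12, an atypical claudin, was the only claudin that rose. It had 80.9 and 66.3 CPM in shCON and 105 and 111 in shZDHHC15 (log2 fold change 0.55, SE 0.11, adjusted p = 9.79e-04). Its exons share 347 bases with GTPBP10 on the same strand, which had 377 and 262 counts in shCON and 493 and 535 in shZDHHC15, and the part of this overlap in the CLDN12 value was not tested.

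The remaining 4 tested claudins did not pass. CLDN8, a barrier claudin of the kidney, had a log2 fold change of 0.31 (SE 0.15, adjusted p = 0.126). CLDN9, CLDN16 and CLDN23 had −0.44, −0.17 and −0.08 with SE of 0.35, 0.29 and 0.13, and the wide errors of CLDN9 and CLDN16 go with counts of only 25 to 55 per library.

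Per length, CLDN4, CLDN1 and CLDN7 led the claudins in every library. CLDN4 held 49.6% ± 2.41 (SD, n = 2) of the summed claudin level in shCON and 42.0% ± 1.39 in shZDHHC15, CLDN1 26.3% ± 2.59 and 28.8% ± 1.21, and CLDN7 14.7% ± 0.392 and 17.3% ± 1.37. CLDN12 held 1.78% ± 0.332 and 3.69% ± 0.133. The shares depend on the gene lengths used. By CPM, without division by length, CLDN4 held 59.3% and 50.9% in the group means, and CLDN4, CLDN1 and CLDN7 led in the same order. The summed claudin level per length was 2066 and 2091 in shCON and 1499 and 1662 in shZDHHC15, so it was lower in both knockdown libraries, while the order of the leading 3 claudins was the same.

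**Figure D2:**
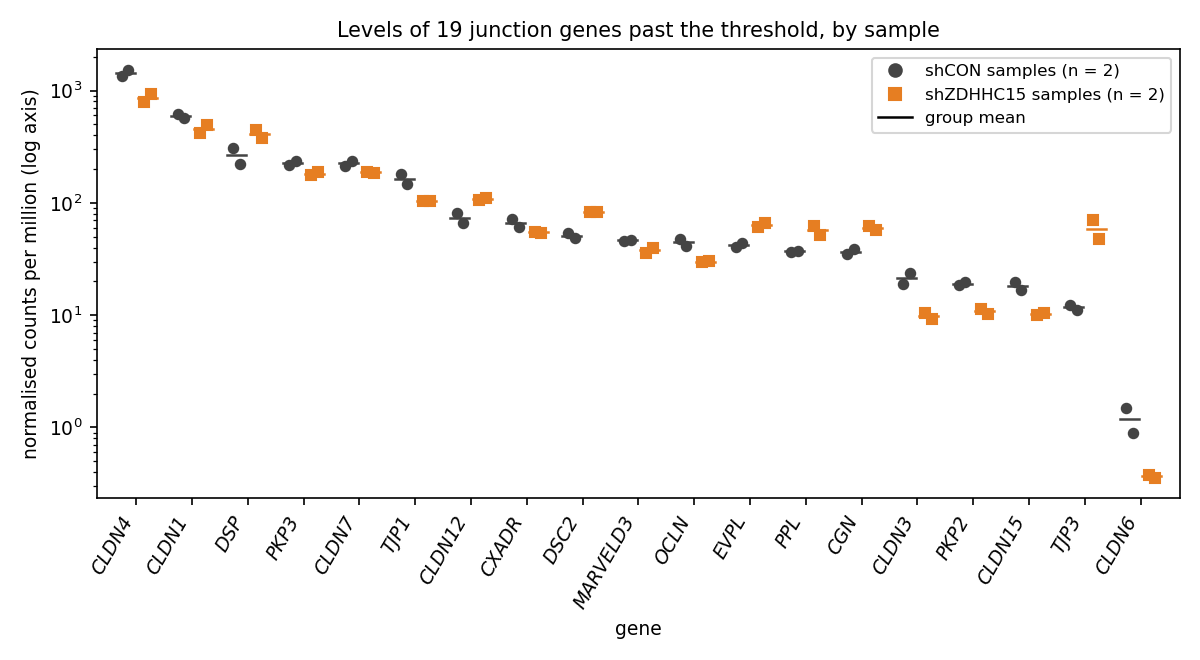
Normalised CPM (y axis, log scale) of 19 of the 20 junction genes past the threshold in each library, with shCON as dark circles, shZDHHC15 as orange squares and a line at each group mean (n = 2). The groups are apart for each gene, and the distance is widest for TJP3 (11.7 against 59.0).

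Occludin and its relatives, the 4-pass proteins that accompany the claudins in the strand, did not move together. OCLN (occludin) had 47.9 and 41.3 CPM in shCON and 29.4 and 30.3 in shZDHHC15 (log2 fold change −0.58, SE 0.12, adjusted p = 1.19e-03). A pseudogene, OCLNP1, matches OCLN over 679 bases and had at most 1 count in any library. MARVELD2 (tricellulin), which seals the corners where 3 cells meet, had 20.5 and 21.2 CPM in shCON and 26.5 and 22.1 in shZDHHC15 and did not pass (log2 fold change 0.22, SE 0.13, adjusted p = 0.204). MARVELD3 had 46.2 and 47.0 against 36.1 and 39.4 (log2 fold change −0.30, SE 0.11, adjusted p = 0.0381). It shares 1068 exon bases with PHLPP2 on the other strand, which had 458 and 343 counts in shCON and 825 and 868 in shZDHHC15. The MARVELD3 call was lost under 3 alternatives with all samples, among them DESeq2 with no filter (adjusted p = 0.0729), and without any 1 of 3 libraries, all but shCON replicate 1 (adjusted p = 0.0564 to 0.281).

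CGN (cingulin), which binds ZO proteins and connects the junction to actomyosin, rose as TJP3 did. It had 34.9 and 38.8 CPM in shCON and 62.0 and 57.1 in shZDHHC15 (log2 fold change 0.69, SE 0.11, adjusted p = 1.77e-04). The adhesion receptors of the immunoglobulin type differed less. F11R (JAM-A) had 87.2 and 82.5 CPM against 76.7 and 80.1 (log2 fold change −0.11, SE 0.10, adjusted p = 0.38). CXADR, the coxsackievirus and adenovirus receptor, had 71.5 and 61.4 against 54.9 and 54.1 (log2 fold change −0.29, SE 0.11, adjusted p = 0.0461), a call lost under 4 alternatives with all samples (adjusted p = 0.0515 to 0.146) and without any library but shCON replicate 2 (adjusted p = 0.15 to 0.18).

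Of the 7 desmosomal cadherins only DSC2 and DSG2, the pair found in simple epithelia, had enough counts to test. DSC2 (desmocollin 2) had 53.6 and 48.1 CPM in shCON and 82.8 and 83.0 in shZDHHC15. It rose 1.63-fold with closely agreeing knockdown libraries (log2 fold change 0.70, SE 0.10, adjusted p = 8.37e-05). DSG2 (desmoglein 2) had 121 and 95.3 CPM against 119 and 115, and the groups overlapped (log2 fold change 0.11, SE 0.11, adjusted p = 0.445). Its 2 control libraries differed enough that the value was 0.27 without shCON replicate 1 (adjusted p = 0.0451) and −0.058 without shCON replicate 2. Per length DSG2 made up 80.9% ± 1.49 (SD, n = 2) of the desmosomal cadherin level in shCON and 73.8% ± 0.235 in shZDHHC15, and DSC2 19.0% ± 1.38 and 25.9% ± 0.517. Without division by length, the group means by CPM were 67.8% and 58.4% for DSG2 and 32.1% and 41.4% for DSC2.

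The desmosomal cadherins lie in a cluster on chromosome 18. DSC3 and DSC1, both under the filter on low counts, lie on either side of DSC2 at gaps of 16.0 and 26.7 kb, and DSG3 lies 19.3 kb from DSG2. DSC3 had 2, 2, 5 and 4 counts, and DSG1 and DSG4 had 0 in all libraries.

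Beneath the cadherins, 3 of the 4 plaque genes rose, where 21.7% of all tested genes did, and all 3 belong to the plakin family. DSP (desmoplakin), the link to keratin filaments, had 307 and 223 CPM in shCON and 441 and 379 in shZDHHC15 (log2 fold change 0.63, SE 0.13, adjusted p = 1.14e-03). The controls were far apart, and without shCON replicate 2 the DSP value was 0.40 and stayed past the threshold (adjusted p = 4.83e-04). PPL (periplakin) had 36.8 and 37.2 CPM against 62.0 and 51.6 (log2 fold change 0.62, SE 0.12, adjusted p = 6.96e-04). EVPL (envoplakin), which pairs with periplakin in the cornified envelope of skin cells, had 40.6 and 43.9 CPM against 61.2 and 65.7 (log2 fold change 0.59, SE 0.11, adjusted p = 5.11e-04). The knockdown libraries lay above both controls for all 3 plakins.

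JUP (plakoglobin), which serves both desmosomes and adherens junctions, was second to CLDN4 per length in both control libraries. It had 1117 and 1180 CPM in shCON and 1166 and 1193 in shZDHHC15, and the ranges overlapped (log2 fold change 0.038, SE 0.084, adjusted p = 0.747). Per length it stood at 785 and 785 in shCON, under CLDN4 at 989 and 1073. In shZDHHC15 it stood at 860 and 878, above CLDN4 at 615 and 715. The level per length was scaled only to the same sum in each library, unlike normalised CPM. On it the JUP groups did not overlap, while by normalised CPM they did. By normalised CPM JUP was likewise below CLDN4 in both controls and above it in both knockdown libraries.

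The plakophilins, armadillo proteins of the plaque, did not rise with the plakins. PKP2, the widely expressed plakophilin, had 18.6 and 19.6 CPM in shCON and 11.4 and 10.1 in shZDHHC15 (log2 fold change −0.82, SE 0.15, adjusted p = 4.09e-04). PKP3, by far the leading plakophilin per length with 88.0% and 87.2% of the family in the group means, had 217 and 236 CPM against 176 and 186 (log2 fold change −0.32, SE 0.092, adjusted p = 0.0119). Without division by length, PKP3 held 76.2% and 74.2% of the family by CPM. Without shZDHHC15 replicate 1 its adjusted p was 0.14. PKP4, which is also found at adherens junctions, had 53.4 and 49.4 CPM against 54.4 and 49.6 (log2 fold change 0.015, SE 0.11, adjusted p = 0.93). PKP1, the plakophilin of stratified skin layers, had 2, 1, 0 and 3 counts.

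**Figure D3:**
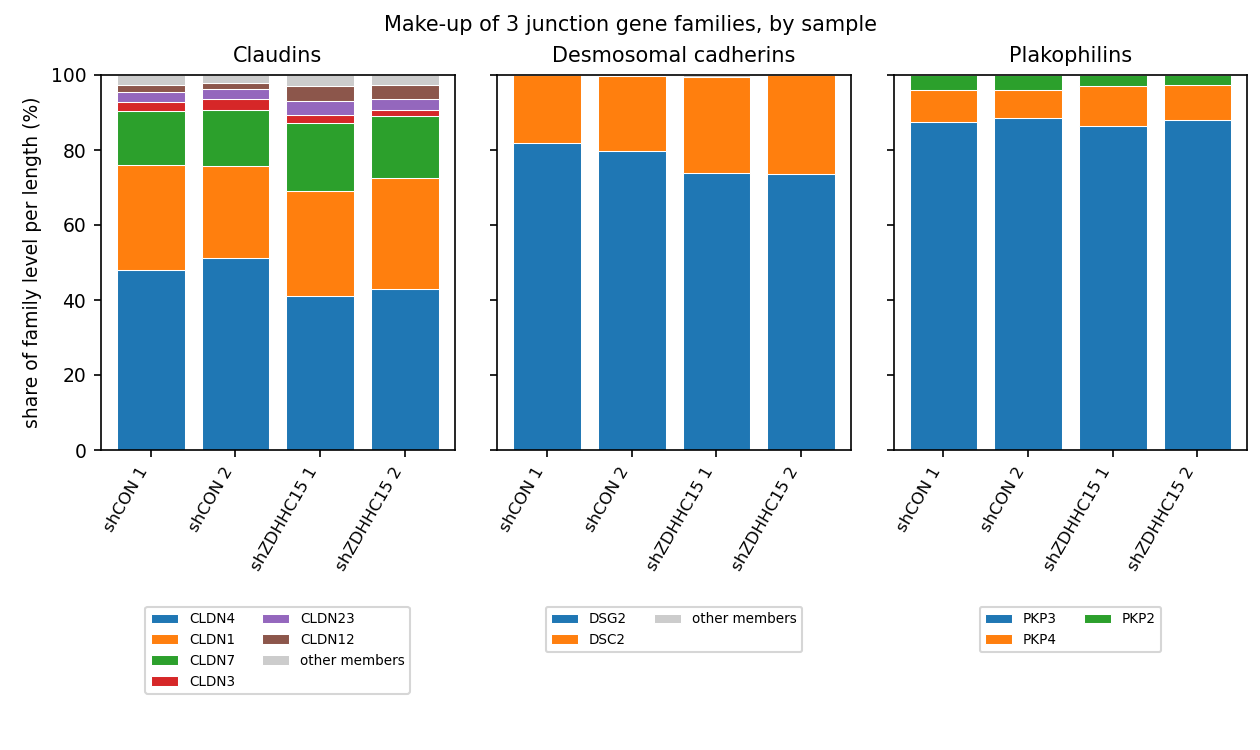
Share of each gene (y axis, percent) in the summed level per length of its family, for claudins, desmosomal cadherins and plakophilins, in each of the 4 libraries (x axis). CLDN4, DSG2 and PKP3 are the leading genes in all libraries, with CLDN4 at 49.6% and 42.0%, DSG2 at 80.9% and 73.8% and PKP3 at 88.0% and 87.2% in the shCON and shZDHHC15 means.

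The 19 genes under the filter were 13 claudins, PKP1, DSC1, DSC3, DSG1, DSG3 and DSG4. They include CLDN2, a cation pore, CLDN5, the endothelial claudin, with 3, 4, 6 and 4 counts, CLDN11 of myelin, CLDN14 of the inner ear and CLDN18 of the stomach and lung. The highest was CLDN20 with 1 and 3 counts in shCON and 7 and 7 in shZDHHC15. CLDN22, CLDN24 and CLDN25 had 0 counts in all libraries. The exons of CLDN22 lie wholly within those of WWC2 on the other strand, which had 703 to 1024 counts per library.

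Several junction genes are close neighbours in the genome, and neighbours did not always share a call. CLDN3 and CLDN4 lie 29.3 kb apart on chromosome 7, and both fell. CLDN1 and CLDN16 lie 65 bases apart on chromosome 3 on opposite strands, and CLDN1 fell while CLDN16 did not pass. CLDN9 and CLDN6 lie 206 bases apart on chromosome 16, and CLDN9 did not pass. CLDN16 and CLDN9 had low counts and wide errors, with log2 fold changes of −0.17 and −0.44, the same sign as their neighbours. MARVELD2 (0.22) and OCLN (−0.58) lie 48.0 kb apart on chromosome 5, and only OCLN passed. Within 100 kb of CLDN3, 7 other protein-coding genes were tested, of which CLDN4 and ABHD11 (log2 fold change −0.35) fell and none rose. Within 100 kb of CLDN6, 12 were tested, of which 5 fell and 1 rose. Within 100 kb of TJP3, 5 were tested. PIP5K1C rose (0.67), APBA3, which ends next to TJP3 (−0.90), and MRPL54 (−0.42) fell, and none came near the 2.33 of TJP3.

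**Figure D4:**
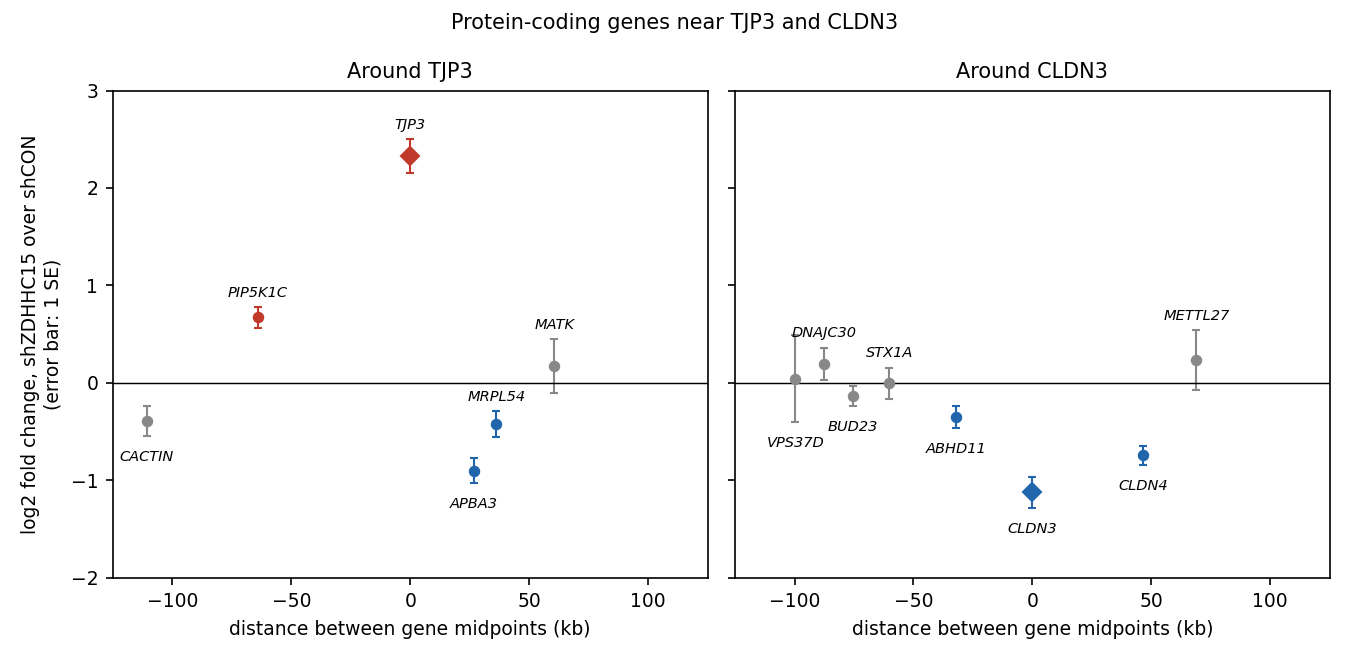
Log2 fold change (y axis, shZDHHC15 over shCON, bars of 1 SE) of tested protein-coding genes within 100 kb of TJP3 and of CLDN3, by distance between gene midpoints in kb (x axis), with diamonds for TJP3 and CLDN3 and red, blue and grey for higher, lower and not past the threshold. TJP3 at 2.33 stands above its 5 neighbours, which run from −0.90 to 0.67, and CLDN3 and CLDN4 are the lowest points of their panel.

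Other genes that work with these junctions were taken from 7 lists of adhesion, scaffold and regulatory genes. Of 93 tested, 20 were higher and 27 lower (median −0.10), beside 21.7% and 20.3% of all tested genes. The adherens junction list, with 7 of 15 past the threshold, and the hemidesmosome list, with 4 of 9, lie near the 42.0% of all tested genes. Among the partners of desmosomes and keratins, 1 of 10 was higher and 7 lower (median −0.50), with KRT8 at −1.62 and KRT18 at −1.58, the keratin pair of simple epithelia whose filaments attach to desmoplakin. Adherens junction genes had 4 higher and 3 lower of 15 (median −0.047). Among 25 tight junction partners and polarity genes 4 were higher and 7 lower (median −0.18). CGNL1 (paracingulin), the relative of cingulin, stood at 2.42 (SE 0.47) from 0.27 and 0.47 CPM in shCON. JAM3 had 0.49 and 0.53 CPM in shCON and 1.13 and 1.32 in shZDHHC15. Both CGNL1 and JAM3 passed the filter on low counts only through the shZDHHC15 group. They are among these 4 and among the 20 of 93, so both counts were partly set by that filter. Hemidesmosome genes had 2 higher and 2 lower of 9, and gap junction genes 1 and 1 of 6. Of 18 transcription factors known to act on junction genes 4 were higher and 5 lower, with GRHL1 at 0.92, and with the repressors of epithelial genes TWIST2 at 1.29 and SNAI2 at −0.93. Of 10 proteases that can cut junction proteins 4 were higher and 2 lower, with MMP7 at 2.00 and KLK5 at −0.82.

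Markers of cell types also differed between the groups. Of 13 epithelial markers 9 were lower and 1 higher, beside 20.3% and 21.7% of all tested genes, and their summed level was 25150 and 27670 CPM in shCON and 13220 and 14170 in shZDHHC15. KRT5, KRT8, KRT14, KRT18 and CDH1 are also in the lists above, and CLDN5 is in the endothelial list. Of 12 mesenchymal markers 5 were tested, with 3 higher and 1 lower (VIM at −2.98), summing to 1719 to 1958 CPM in shCON and 2255 to 2689 in shZDHHC15. Nearly all of that sum was FN1 (fibronectin), at 1655 to 1894 CPM and 2231 to 2665, with LUM at 0 in all libraries. Of 6 endothelial markers 3 were tested, with 2 higher and 1 lower, summing to 57.7 CPM in both shCON libraries and 102 to 108 in shZDHHC15, and VWF had at most 7 counts. Of 9 leukocyte markers 2 were tested, with 1 higher and 1 lower, summing to 9.38 to 11.4 CPM and 5.75 to 7.18, and CD3E and MS4A1 were at 0. The leukocyte marker counted as higher, CD14, passed the filter on low counts only through the shZDHHC15 group, so its rise was partly set by that filter. The part of these shifts in the junction gene values was not tested. In such bulk libraries fewer cells of a kind and less RNA per cell cannot be told apart.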

How the data were processed

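RNA-seq was done on total RNA of 2 shCON and 2 shZDHHC15 libraries made with an NEBNext Ultra kit. The deposited table holds raw read counts per gene with the gene's position and length. The submitters' processing notes name HISAT2, StringTie, SAMtools and hg38. The counting program, its strand setting and the annotation are not given in the sources used here. Gene positions matched GENCODE 29 for 58724 of 58735 entries.

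From these deposited counts, genes passing edgeR's filterByExpr were fitted with TMM scaling and the quasi-likelihood test (edgeR 4.0.16, limma 3.58.1, R 4.3.3), with Benjamini-Hochberg adjustment over 15817 genes and a threshold of 0.05. Normalised CPM used TMM-scaled totals. Shares used counts divided by the deposited gene length. An exact permutation test of 2 against 2 libraries cannot go below p = 0.333. Shared exon bases came from the GENCODE annotation and near-identical sequence from BLAST+ 2.17.0. Promoter windows came from RefSeq (GRCh38.p14), with an entry for 34 of the 48 genes. The fit was also run on simulated data, with an outcome that is not reported here and on which no call rests.

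The 48 genes follow a rule on gene names. All tested genes but 1, which is not reported here, are named with values, and further genes are those with the largest fold changes of each list. The genes and the lists were chosen with earlier results of these data known. Replicates of a group differed by more than sampling noise (chi-square per degree of freedom 8.32 and 6.79).

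Alternatives were other scaling factors, other filters, DESeq2 1.42.0 without a filter on low counts, an older edgeR dispersion setting, a replicate block, leaving out each library, and shares without gene length.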

Additional observations from a re-analysis of the deposited data

How the results depend on the processing

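With 2 libraries per group, the estimate of the spread rests on few libraries. All 20 calls kept their direction in every alternative fit in which the gene was tested, and 16 kept their call in every fit with all libraries. Fewer held when 1 library was left out, where CLDN1, CLDN6, CLDN7, CXADR, MARVELD3 and PKP3 lost their call in at least 1 fit. CLDN6 was not tested where at least 10 counts were required in every library. The count of genes that rose was 8 in each fit with all libraries. The count that fell was 12, and it was 9 with total counts alone, 9 with DESeq2, which was run with no filter on 30168 genes, 8 with edgeR and no filter, 10 with at least 10 counts in every library, and 7 to 10 when 1 library was left out, lowest without shZDHHC15 replicate 1. Of the 2 genes that fell by over 1, 1 still passed (CLDN3) with DESeq2, with no filter and with at least 10 counts in every library, and 1 to 2 when 1 library was left out. The median log2 fold change of the tested genes was −0.039 with total counts alone, which moved the median of all genes to 0.090, and −0.16 to −0.10 with 1 library left out. Changed signs were seen only in genes that did not pass: PKP4 at −0.016 with upper-quartile factors, −0.0026 with DESeq2 and −0.0032 with no filter, and, with 1 library left out, ranges of −0.054 to 0.074 for PKP4, −0.39 to 0.054 for CLDN16, −0.22 to 0.030 for CLDN23, −0.058 to 0.27 for DSG2 and −0.031 to 0.067 for JUP. The cause was not tested. In a fit with 1 library left out, the lone library is assumed to vary like the other group. The replicate block gave 8 higher and 12 lower with 7225 genes called in all beside 6644, and same-numbered libraries deviated together with a correlation of only 0.082, so the numbers were not used as pairs. Requiring 10 counts in every library gave 6226 calls, no filter 4632 of 30168 genes, DESeq2 with no filter 5029 of the same 30168, and leaving out shZDHHC15 replicate 1 4725.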
